A study of Mus musculus with 4 samples.

Results

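The response of M-PDK1KO plantaris muscle to functional overload is described here, as the log2 value of the ablated array minus that of the sham-operated array, for every gene with a probe set that names it alone. It rests on 2 of the 4 arrays of the series and covers 22180 genes, each read from whichever of its probe sets had the highest mean signal. M-PDK1KO mice were male mice with floxed alleles of the PDK1 gene and a Cre transgene under the skeletal muscle promoter Mlc1f (myosin light chain 1f), on a C57/BL6 background, 12 weeks of age by the study's description. Their plantaris was taken 10 days after removal of the gastrocnemius and soleus of both lower limbs (synergistic muscle ablation, SA) or after a sham operation. Control mice, which the study's account of its animals describes as floxed mice without Cre and the sample labels call wild type, had the same 2 operations. Every condition had 1 array, so no difference below has a replicate check or a test. The sources used here do not say whether the RNA of an array came from a single mouse or was pooled.

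PDK1 is the kinase that phosphorylates the activation loop of Akt, S6 kinase and serum/glucocorticoid-regulated kinases downstream of phosphoinositide 3-kinase (PI3K). In muscle the pathway links insulin, insulin-like growth factors and amino acids to protein synthesis through mTOR complex 1, and Akt keeps the FoxO factors, which drive genes of protein breakdown, out of the nucleus. When its synergists are removed, the plantaris carries their load, and its fibers enlarge while connective tissue, vessels and immune cells are remodeled around them.

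The PDK1 gene, Pdpk1, had log2 signals of 6.23 after ablation and 5.96 after sham surgery in M-PDK1KO plantaris, against 6.85 and 6.81 in control plantaris. Both M-PDK1KO arrays were thus below both control arrays, by 0.63 after ablation and 0.85 after sham surgery, while the response to ablation in M-PDK1KO was 0.27. The sources used here do not place the probes inside or outside the deleted exons, and Mlc1f-Cre acts in myofibers, not in the other cells of whole muscle. The 12 genes of myofiber identity had a mean log2 value of 12.02 after ablation and 12.05 after sham surgery in M-PDK1KO mice, so both arrays carried the defining genes of skeletal muscle. Over all 41345 probe sets the 4 arrays had nearly the same distribution, with medians between 2.66 and 2.69. Median centring still moved responses by up to 0.09, and the counts past the cutoffs depend on it, as given further below. No depth applies to array signals: the number of arrays limits the precision.

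After ablation, 1059 genes were at least 2-fold higher in M-PDK1KO plantaris, which is 4.77% of the 22180, and another 602 lay at or below 0.5-fold, or 2.71%. The distribution leaned to large increases, since 250 genes were at least 4-fold and 60 at least 8-fold higher, against 47 genes at most 0.25-fold. The median response of all genes was -0.02, and 5% of genes lay below -0.78 and 5% above 0.97. Around the 2-fold cutoff, Eif2ak3 lay just inside at 1.002 and Piezo1 just outside at 0.999. As a scale for the precision, 422 genes had several probe sets whose signal exceeded 3.23, the median over all genes, on an M-PDK1KO array, and their first 2 probe sets differed in response by a median of 0.26 (SD of the differences 0.63). Of the 82 such genes whose first probe set was past 2-fold, the second had the same sign in 75 and was itself past 2-fold in 43.

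**Figure D1:**
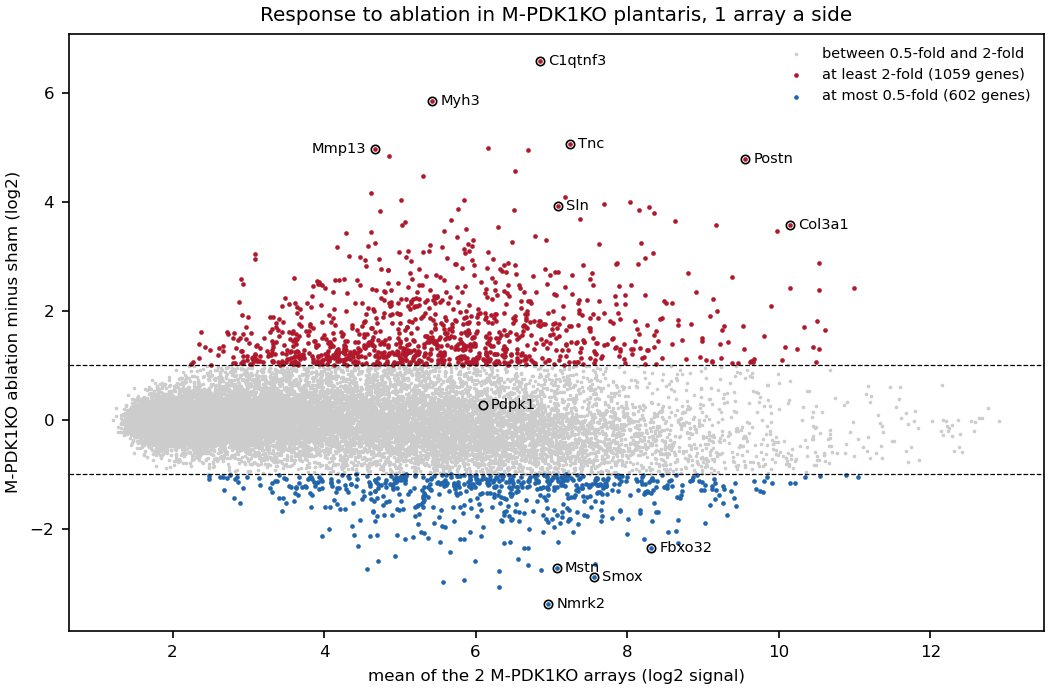
Response of each of the 22180 genes (ablation minus sham, log2, vertical) against the mean of the 2 M-PDK1KO arrays (log2 signal, horizontal), 1 array a side. Dashed lines mark 2-fold and 0.5-fold, and the points reach further above 0, up to C1qtnf3 at 6.58, than below it, down to Nmrk2 at -3.37.

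The 15 highest responses included several genes of the extracellular matrix and a pair of genes of developing muscle. C1qtnf3, a secreted protein with C1q and collagen domains, had log2 values of 10.14 after ablation and 3.56 after sham surgery, a 95.6-fold difference. Myh3, the myosin heavy chain of embryonic and regenerating fibers, had 8.34 after ablation and 2.50 after sham surgery (57.2-fold). Tnc (tenascin C), a matrix glycoprotein of tendon and of loaded or injured tissue, had 9.77 and 4.71 (33.4-fold). The responses of the same 3 genes in control plantaris were 6.64, 5.91 and 4.68. Mest, an imprinted gene, had 8.66 after ablation and 3.68 after sham surgery, and the collagenase gene Mmp13 had 7.15 and 2.19. Col8a1, a short-chain collagen, had 9.17 and 4.22. Mymk, which encodes the membrane protein myomaker that myoblasts need to fuse, had 7.28 after ablation and 2.45 after sham surgery. Postn, the matrix protein periostin, was 27.4-fold higher, at 11.95 after ablation and 7.17 after sham surgery. The rest of the 15 highest were Cthrc1, Lrrc15, P4ha3, Ctss, Adam12, Plod2 and Mmp14, with responses between 3.99 and 4.56. They include a prolyl and a lysyl hydroxylase of collagen (P4ha3, Plod2), a membrane-anchored matrix protease (Mmp14) and a lysosomal protease of antigen-presenting cells (Ctss). Mmp13, Mymk, Myh3, P4ha3, Lrrc15 and Adam12 were below the median of all genes on the sham array, where the fold depends on how dim signals are read; with values raised to that median the responses of the first 4 were 3.92, 4.05, 5.11 and 3.47, and those of Lrrc15 and Adam12 differed by less than the probe set spread of 0.63.

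The 15 lowest responses included genes of metabolism, the myostatin gene and a pair of genes tied to ubiquitin ligases. Nmrk2, a kinase that makes NAD precursors from nicotinamide riboside in muscle, had a log2 value of 5.27 after ablation and 8.64 after sham surgery, which is 0.0965-fold. Smox, the spermine oxidase of polyamine breakdown, had 6.11 after ablation and 9.0 after sham surgery (0.136-fold). Pfkfb3, which makes the activator of phosphofructokinase, had 4.93 and 7.70 (0.146-fold). In control plantaris these 3 genes had responses of -2.49, -2.22 and -2.08. Slc27a1, a fatty acid transporter, had 5.47 after ablation and 8.24 after sham surgery, and the alanine aminotransferase gene Gpt2 had 6.26 and 8.90. Mstn encodes myostatin, the secreted inhibitor of muscle growth, and had 5.71 after ablation and 8.43 after sham surgery (0.152-fold). Klhl38 and Asb14, which encode proteins of the kind that act as substrate adaptors of ubiquitin ligases, had responses of -2.66 and -2.36. The other genes among the 15 lowest were Odf3l2, Arrdc2, Gdap1, Slc25a25, Neto2, Plin4 and Nt5c1a, between -2.97 and -2.50. Slc25a25 is an ATP-Mg and phosphate carrier of mitochondria, Plin4 coats lipid droplets, and Nt5c1a is the AMP 5′-nucleotidase of muscle.

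**Figure D2:**
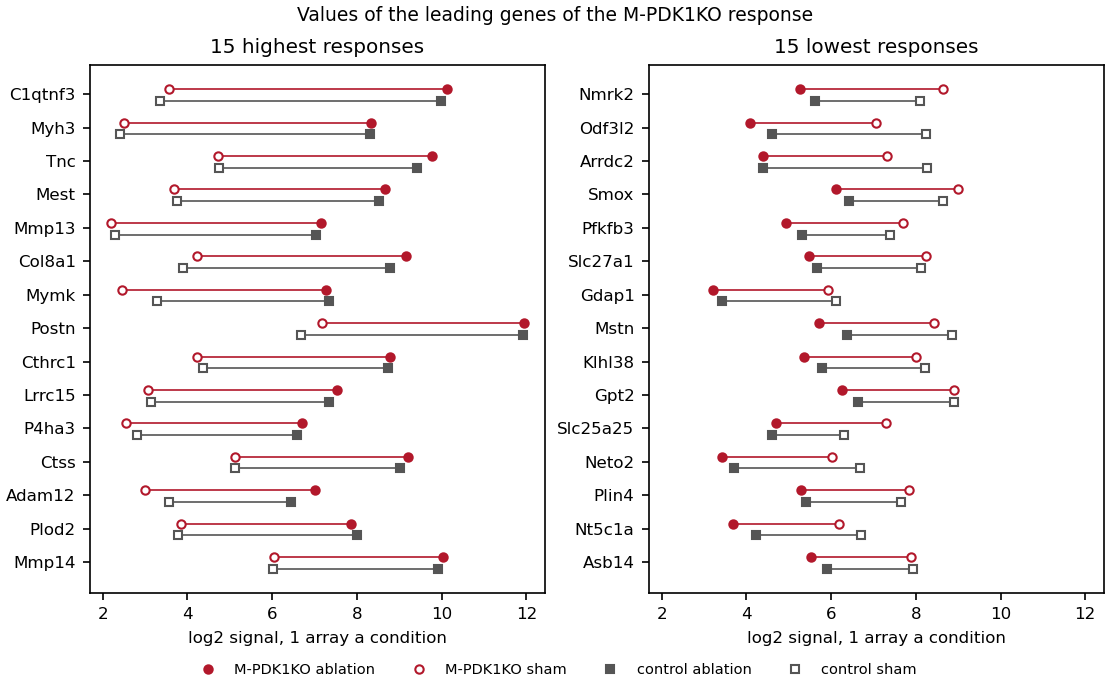
Log2 signal (horizontal) of the 15 genes with the highest and the 15 with the lowest M-PDK1KO responses, 1 point an array, filled for ablation and open for sham, with M-PDK1KO as circles above control as squares. In every gene the ablated and sham values are far apart in both genotypes, as for Myh3, at 8.34 and 2.50 in M-PDK1KO plantaris and at 8.31 and 2.40 in control plantaris.

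Promoter windows of these leading genes were searched for short motifs, and those that hold TGANTCA or CAGCTG are shown. Of the 15 highest and 15 lowest genes, 11 and 12 had a window. The windows run from 250 bases before to 50 after the start of each gene (RefSeq, GRCm38.p6). TGANTCA is the site of AP-1 factors such as Fos and Jun, and CAGCTG is an E-box that myogenic factors can bind. The capitals mark TGANTCA in Mmp13, Lrrc15 and Mstn, and CAGCTG in Mest, Ctss and Slc27a1.
Mmp13 (chr9:7272264-7272563, plus strand): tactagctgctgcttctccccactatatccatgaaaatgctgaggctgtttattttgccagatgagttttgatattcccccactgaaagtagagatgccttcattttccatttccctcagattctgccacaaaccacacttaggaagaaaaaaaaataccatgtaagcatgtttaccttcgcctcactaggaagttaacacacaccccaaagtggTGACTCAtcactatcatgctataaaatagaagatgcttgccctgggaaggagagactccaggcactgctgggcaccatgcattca
Lrrc15 (chr16:30283205-30283504, minus strand): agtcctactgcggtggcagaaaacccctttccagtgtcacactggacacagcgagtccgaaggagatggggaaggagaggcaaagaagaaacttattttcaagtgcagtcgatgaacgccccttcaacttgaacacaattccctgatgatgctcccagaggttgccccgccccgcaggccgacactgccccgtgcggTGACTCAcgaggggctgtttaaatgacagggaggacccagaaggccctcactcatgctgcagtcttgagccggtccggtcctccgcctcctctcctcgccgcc
Mstn (chr1:53061390-53061689, plus strand): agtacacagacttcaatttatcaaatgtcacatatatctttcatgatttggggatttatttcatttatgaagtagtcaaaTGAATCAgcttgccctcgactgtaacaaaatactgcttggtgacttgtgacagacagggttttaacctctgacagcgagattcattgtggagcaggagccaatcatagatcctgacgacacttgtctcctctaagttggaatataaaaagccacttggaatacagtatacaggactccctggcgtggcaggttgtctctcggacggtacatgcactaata
Mest (chr6:30733256-30733555, plus strand): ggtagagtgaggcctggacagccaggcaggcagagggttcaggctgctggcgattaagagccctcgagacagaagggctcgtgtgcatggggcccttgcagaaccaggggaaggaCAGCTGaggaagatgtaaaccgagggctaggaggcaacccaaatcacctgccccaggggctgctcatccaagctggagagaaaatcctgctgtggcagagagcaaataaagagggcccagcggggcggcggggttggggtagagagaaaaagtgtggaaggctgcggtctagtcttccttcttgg
Ctss (chr3:95526536-95526835, plus strand): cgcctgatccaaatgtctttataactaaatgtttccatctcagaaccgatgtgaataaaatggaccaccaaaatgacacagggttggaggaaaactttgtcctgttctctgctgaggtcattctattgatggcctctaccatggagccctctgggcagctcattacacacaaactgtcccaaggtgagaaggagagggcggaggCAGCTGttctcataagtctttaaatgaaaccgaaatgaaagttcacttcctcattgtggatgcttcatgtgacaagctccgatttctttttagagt
Slc27a1 (chr8:71568621-71568920, plus strand): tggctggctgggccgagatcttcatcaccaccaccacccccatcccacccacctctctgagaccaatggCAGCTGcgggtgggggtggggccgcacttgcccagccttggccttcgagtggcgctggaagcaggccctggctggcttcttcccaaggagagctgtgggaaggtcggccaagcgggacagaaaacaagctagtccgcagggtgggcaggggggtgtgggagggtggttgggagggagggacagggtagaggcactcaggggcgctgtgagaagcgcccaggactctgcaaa
Counted from the gene start, the motif begins at position -35 in Mmp13, -53 in Lrrc15 and -170 in Mstn, and at -135 in Mest, -46 in Ctss and -181 in Slc27a1. Both motifs read the same on either strand, and no window shown holds both. TGANTCA was in 20 of the 173 windows of genes at least 4-fold higher (11.6%), 54 of 768 of those at least 2-fold higher (7.03%) and 23 of 479 of those at most 0.5-fold (4.80%). It was in 4.88% of the 9225 windows of genes above the median and in 7.37% of all 16918 windows. CAGCTG was in 19.1% of the windows of genes at least 4-fold higher and 20.0% of those at most 0.5-fold, against 15.8% of all windows. The other motifs searched, on both strands, were CATTCC (the core of TEAD sites), TGACGTCA (CREB), CCAAT (NF-Y), TATAAA (the TATA box), GGGCGG (SP1), TGACCTTTG (nuclear receptors) and the CArG box of serum response factor. Of these, CATTCC was in 15.6% of the windows of genes at least 4-fold higher and 13.5% of all windows, and TATAAA in 16.2% and 12.9%. GGGCGG was in 49.1% and 46.8%, whereas TGACGTCA was in 1.16% and 2.45%. CCAAT was in 41.0% and 38.4%, TGACCTTTG in 0.578% and 0.431%, and the CArG box in 1.73% and 1.46%. Over the windows of genes above the median the shares were 11.9% for CATTCC, 7.49% for TATAAA and 15.6% for CAGCTG. For GGGCGG and TGACGTCA they were 64.5% and 3.18%, above those of genes at least 4-fold higher. These counts describe letters in a short window and have no test.

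Genes of developing and slow muscle were higher on the ablated array, and fast fiber genes were little different. The shares of all genes past the upper and lower cutoffs were 4.77% and 2.71%. They were 10.6% and 5.75% at a mean log2 value between 5 and 7. At 9 and above, where the mean of the fast fiber list lay, they were 10.7% and 8.74%. Of 8 genes of the embryonic and neonatal sarcomere, 7 were at least 2-fold higher (median response 1.86), and the exception was Myh7b at -0.08. Myl4, a light chain of embryonic muscle, had 7.71 after ablation and 4.94 after sham surgery. Tnnt2 and Actc1, the troponin T and actin genes of heart and fetal muscle, had responses of 2.66 and 1.90. Of 13 slow fiber genes, 7 were at least 2-fold higher and 1, the light chain gene Myl3, was lower by more than that (-1.14). The list had a median of 1.05 against 1.72 in control plantaris, and 12 of the 13 had a smaller response in M-PDK1KO. Its mean log2 value was 7.14 after ablation and 6.30 after sham surgery in M-PDK1KO, against 7.31 and 5.98 in control plantaris. The sham M-PDK1KO mean was thus above, and the ablated one below, that of control, and the difference in response was not tested. Tnni1, slow troponin I, had 6.41 after ablation and 4.25 after sham surgery. Tnnc1, slow troponin C, had 6.77 and 4.99, a response of 1.78, against 7.25 and 4.33 in control plantaris, a response of 2.91. Myh7, the slow myosin heavy chain, was outside the rule for named genes and was chosen after its values were seen: its response was 0.78 in M-PDK1KO and 2.17 in control plantaris. Of 15 fast fiber genes, none was at least 2-fold higher and 2 were at or below 0.5-fold, Mylk2 (fast myosin light chain kinase) at -1.75 and Mybpc2 (fast myosin-binding protein C) at -1.05. Myh1 and Myh4, the IIx and IIb heavy chains of fast fibers, had responses of 0.63 and -0.59.

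The stretch-responsive and fusion lists held a few large responses among many small ones. Ankrd1, a titin-associated protein that rises in stretched and stressed muscle, had 9.86 after ablation and 6.81 after sham surgery, and Mustn1 and Ankrd2 had responses of 1.64 and 1.05, while the other 17 of 20 Z-disc and stretch-responsive genes lay between the cutoffs. Among 18 myogenic factors and fusion genes, 3 were at least 2-fold higher: Mymk, Rassf4 at 1.5 and Myog (myogenin) at 1.42. Six4, a homeobox factor of the muscle lineage, was at -1.01. At the neuromuscular junction, Runx1 and Ncam1, which mark denervated and regenerating fibers, had responses of 2.98 and 2.18. Musk, the receptor kinase that clusters acetylcholine receptors, and its partner Rapsn had -1.32 and -1.11, against -0.88 and -0.79 in control plantaris. In M-PDK1KO plantaris 2 of 15 junction genes were thus past each cutoff, against 4.77% and 2.71% of all genes. Of genes at a mean log2 value between 5 and 7, 10.6% and 5.75% were past them. Control plantaris had 3 at least 2-fold higher and 0 at or below 0.5-fold, with Musk and Rapsn in the same direction but short of that cutoff.

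Small membrane proteins that inhibit the calcium pump SERCA differed in direction. Sln (sarcolipin) had 9.05 after ablation and 5.13 after sham surgery in M-PDK1KO plantaris, 15.1-fold higher, against 9.31 and 4.16 in control plantaris. Mrln (myoregulin) had 6.26 after ablation and 8.32 after sham surgery (-2.06), and Atp2a2, the slow and cardiac SERCA2 pump, had 9.58 and 7.76. Pln (phospholamban) had 3.93 and 4.39. Sarcolipin was thus higher and myoregulin lower on the same array pair, with the slow pump also higher. Over the 26 genes of the list, 3 were at least 2-fold higher (Sln, Atp2a2 and the calsequestrin gene Casq2), 5 were past the lower cutoff, and 21 had a response below 0 (median -0.52). Of all genes 4.77% and 2.71% were past these cutoffs, and 9.64% and 11.2% at a mean log2 value between 7 and 9, where the list mean lay. The share past the upper cutoff was near the latter background, and that past the lower was above it. In the dystrophin complex, Nos1, the neuronal nitric oxide synthase held at the sarcolemma, had 4.25 after ablation and 6.31 after sham surgery, and the syntrophin gene Sntb2 had a response of 1.35.

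Many genes of the matrix were higher on the ablated array. Of 29 collagen chains, 18 were at least 2-fold higher and 0 at or below 0.5-fold, with a median of 1.41 (control 1.57). Col12a1, a collagen on the surface of fibrils, had 9.68 after ablation and 5.72 after sham surgery. Col3a1, of reticular fibers, had 11.93 and 8.35, and Col1a1, the main chain of tendon and scar, had 12.20 and 9.78. Fibril-forming and fibril-associated chains were thus both among the higher genes. Of 37 matrix glycoproteins, 27 were at least 2-fold higher (median 1.78), with Fn1 (fibronectin) at 11.71 after ablation and 8.25 after sham surgery and Thbs2 (thrombospondin 2) at 10.24 and 6.34. Of 26 proteoglycan and hyaluronan genes, 14 were at least 2-fold higher, led by Aspn (asporin, 3.57), Vcan (versican, 3.19) and Acan (aggrecan, 2.99). Among 18 enzymes that process collagen, 9 were at least 2-fold higher, and Lox, the crosslinking lysyl oxidase, had 10.25 after ablation and 6.47 after sham surgery. Of 29 matrix proteases and inhibitors, 15 were at least 2-fold higher, and the inhibitor gene Timp4 was at -1.65. Adam12, a metalloprotease of fusing myoblasts and fibroblasts, had 7.02 after ablation and 3.0 after sham surgery in M-PDK1KO plantaris, against 6.44 and 3.56 in control plantaris, and Timp1, another inhibitor, had a response of 3.87.

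Genes of secretion and fibroblast markers were higher on the same array. Of 36 genes for folding and export in the endoplasmic reticulum, 19 were at least 2-fold higher and 0 at or below 0.5-fold (median 1.05), led by Kdelr3, a retrieval receptor, at 7.21 after ablation and 4.43 after sham surgery, and by the disulfide isomerase gene Pdia5 at 6.21 and 3.48. Of 19 fibroblast and tendon markers, 14 were at least 2-fold higher and 19 had a response above 0, and the mean log2 value of the list was 7.02 after ablation and 5.19 after sham surgery. Tnmd (tenomodulin), a marker of tendon cells, had 9.28 and 6.81. In whole muscle a larger number of cells of a type and more RNA per cell cannot be told apart, and the part of these cells in the matrix responses was not tested. Of 12 genes of the transforming growth factor beta pathway, which drives matrix genes, 7 were at least 2-fold higher (median 1.09), among them the ligand Tgfb1 at 1.83, the receptor Tgfbr2 at 1.49 and the induced gene Tgfbi at 1.45. Of 16 targets of YAP and TEAD, factors that respond to stiffness and load, 4 were at least 2-fold higher. Of the 16, 15 had a smaller response than in control plantaris, with medians of 0.26 in M-PDK1KO and 0.68 in control plantaris. The list mean was 6.62 after ablation and 6.06 after sham surgery in M-PDK1KO plantaris, against 6.69 and 5.84 in control plantaris. The genotypes thus differed more on the sham arrays than on the ablated arrays, and the difference in response was not tested. Ccn2 had a response of 1.95 (1.12 by the mean of its probe sets) in M-PDK1KO and 1.96 in control plantaris, whereas Ccn1 had 1.63 and 2.67.

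Macrophage genes were higher almost throughout, and lymphocyte and granulocyte genes stayed near the bottom of the signal range. Of all genes 4.77% were at least 2-fold higher, and 10.6% of those at a mean log2 value between 5 and 7. Of 27 macrophage genes, 23 were at least 2-fold higher and all 27 had a response above 0, with a median of 2.00 (control 2.04). The mean log2 value of the list was 6.16 after ablation and 4.13 after sham surgery. Cd68, a lysosomal glycoprotein of macrophages, had 7.31 after ablation and 3.85 after sham surgery, Gpnmb had 7.51 and 3.85, and Mpeg1 had 6.89 and 3.26. The T, B and NK cell list had a mean of 2.51 after ablation and 2.32 after sham surgery, with 15 of 16 genes at or below the median of all genes on both arrays. Neutrophil and mast cell genes were similarly dim, with means of 2.77 and 2.50 and 12 of 16 genes at or below that median. Of 21 lysosome and cathepsin genes, 12 were at least 2-fold higher (median 1.09). Ctss had 9.22 after ablation and 5.13 after sham surgery, Ctsk, the collagen-degrading cathepsin K, had 7.62 and 4.13, and the proton pump subunit gene Atp6v0d2 had 4.20 and 1.62, a response of 2.58, or 0.97 with dim values raised to the median. Complement genes held both directions, since C1qb, the recognition subunit of the classical pathway, had a response of 2.84 and C7, a component of the attack complex, had 4.75 after ablation and 6.95 after sham surgery. Of 38 chemokine and cytokine genes, 11 were at least 2-fold higher, with Il1b (interleukin 1 beta) at 2.60, or 1.68 with dim values raised to the median, Cxcl9 at 2.48, Ccl6 at 2.44 and Ccl7 at 2.38. The part of more macrophages in the lysosomal, complement and chemokine values was not tested.

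Genes of proliferation and growth factors were also higher on the ablated array. The background at least 2-fold higher was 4.77% of all genes, with 2.71% at or below 0.5-fold. At a mean log2 value between 3 and 5, where that of the cell cycle list lay, the shares were 6.4% and 2.24%. Between 5 and 7 they were 10.6% and 5.75%. Of 38 cell cycle and replication genes, 18 were at least 2-fold higher, with Ccna2 (cyclin A2) at 5.16 after ablation and 2.67 after sham surgery and Mki67 at 5.87 and 3.64. Which cells carried these transcripts cannot be told from whole muscle. Of 15 imprinted growth genes, 7 were at least 2-fold higher, led by Mest, by Igf2 at 7.52 after ablation and 4.91 after sham surgery, and by Plagl1, a zinc finger factor, at a response of 2.56 (1.51 by the mean of its probe sets). In the IGF axis, Igf1 had 7.04 after ablation and 5.20 after sham surgery and Igfbp4, a binding protein that holds IGF, had 9.12 and 6.68. Irs2, an adaptor of the insulin and IGF1 receptors, had 5.86 after ablation and 7.92 after sham surgery in M-PDK1KO plantaris, a response of -2.07, against 6.29 and 6.95 in control plantaris (-0.66). The ligands were thus higher while this adaptor was lower. In the myostatin, activin and BMP list, with 4 of 30 genes past the upper cutoff and 2 past the lower, Fstl1 (follistatin-like 1) was at 3.23 and Bmp1, the protease that matures procollagen, at 2.13, against Mstn at -2.72. Both shares of this list were near those of genes at a mean log2 value between 5 and 7.

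Within the pathway that PDK1 belongs to, most transcripts differed by less than 2-fold, and several of its inhibitors were lower. Of 34 genes of the PI3K-PDK1-mTOR axis, 2 were at least 2-fold higher and 5 at or below 0.5-fold. Over all genes these shares were 4.77% and 2.71%, and 10.6% and 5.75% at a mean log2 value between 5 and 7. The share at or below 0.5-fold was thus above both backgrounds. In this list 26 genes had a response below 0 (median -0.37, against -0.27 in control plantaris and -0.02 over all genes). The inhibitors Ddit4l and Ddit4 (REDD2 and REDD1), which act on mTOR complex 1 through the TSC complex, had responses of -1.82 and -1.19. Deptor, an inhibitor bound to mTOR, had 6.55 after ablation and 7.96 after sham surgery, and Tsc1 and Tsc2 had -0.88 and -0.76. Sesn2 and Sesn3, which restrain mTOR complex 1 when amino acids are scarce, had 0.81 and 0.68. Among the kinases, Akt1 had 7.73 after ablation and 7.03 after sham surgery, while Akt2, the isoform of insulin-driven glucose uptake, had 7.35 and 8.48 and was at 0.46-fold. Mtor and its partners Rptor and Rictor had -0.64, -0.37 and -0.57. The positive regulator Rragd, a GTPase that brings mTOR complex 1 to lysosomes, had -1.21. Of the PI3K subunits, the regulatory Pik3r3 and the leukocyte catalytic Pik3cg had 1.25 and 1.21, and Pik3ca and Pik3r1 had -0.17 and -0.49. Rps6, Eif4e and Eif4ebp1, at the end of the pathway, had 0.39, -0.46 and -0.43.

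**Figure D3:**
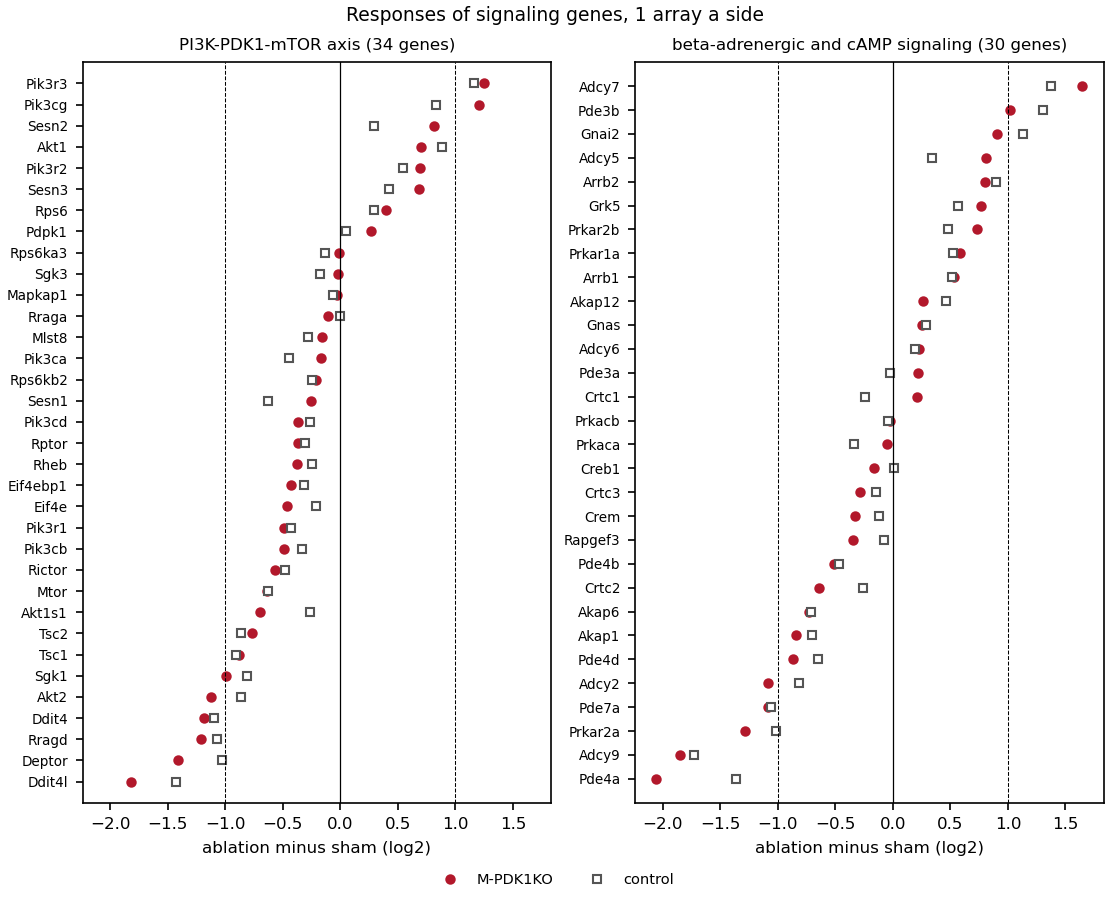
Response (ablation minus sham, log2, horizontal) of each measured gene of the PI3K-PDK1-mTOR axis and of beta-adrenergic and cAMP signaling, with M-PDK1KO as filled circles and control as open squares, 1 array a side. Dashed lines mark 2-fold and 0.5-fold; in the first list Ddit4l is lowest at -1.82, and in the second Pde4a is lowest at -2.06 and Adcy7 highest at 1.65 in M-PDK1KO plantaris.

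Beta-adrenergic receptors raise cAMP, which activates protein kinase A and can enlarge muscle. Of 30 measured genes of this signaling, 2 were past the upper cutoff and 5 past the lower, with a median of -0.04. Over all genes 4.77% and 2.71% were past these cutoffs, and 10.6% and 5.75% over genes of a mean log2 value between 5 and 7. The share past the lower cutoff was thus above both backgrounds, and that past the upper was not above the second. Pde4a, a phosphodiesterase that degrades cAMP, had 4.90 after ablation and 6.96 after sham surgery in M-PDK1KO plantaris, against 5.61 and 6.97 in control plantaris. Among the cyclases, which make cAMP, Adcy9 had 5.42 after ablation and 7.28 after sham surgery and Adcy2 had 6.47 and 7.55, whereas Adcy7, found in leukocytes, had 6.73 and 5.08. Prkar2a, a regulatory subunit of protein kinase A, was at -1.29, and the catalytic subunits Prkaca and Prkacb were at -0.05 and -0.02. The phosphodiesterase genes Pde7a and Pde3b were at -1.09 and 1.02.

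Few genes for the synthesis machinery of proteins were past a cutoff. Over all genes 4.77% were past the upper cutoff and 2.71% past the lower. The means of the ribosome biogenesis and cytosolic ribosomal protein lists lay between 5 and 7, where these shares were 10.6% and 5.75%. The mean of the translation factor list lay between 7 and 9, where they were 9.64% and 11.2%. Each list had smaller shares past both cutoffs than genes of its signal level. Of 35 ribosome biogenesis genes, 1 was at least 2-fold higher and 0 at or below 0.5-fold (median -0.11), and this gene, Taf1d, was at 1.10, or 0.25 by the mean of its probe sets. Of 44 cytosolic ribosomal protein genes, 1 was past each cutoff, Rpl3 at 1.20 and its muscle paralog Rpl3l at -1.05. The pair stood in opposite directions, with Rpl3 at 6.73 after ablation and 5.54 after sham surgery and Rpl3l at 8.35 and 9.40, although the mean of the probe sets of Rpl3 gave 0.10. Ribosomal protein genes have many processed pseudogenes, which probes may not tell apart. Of 36 translation factors, 2 were past the upper cutoff, Eef1a1 and Eif1a, and 2 past the lower, Eif2s2 and Eef2k. Eif1a was at 1.02 and Eif2s2 at -1.35. Eef1a1, the elongation factor isoform that adult fibers replace by another, had 11.11 after ablation and 9.78 after sham surgery, and Eef2k, the kinase that inhibits elongation, had 5.31 and 6.56.

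Among genes of protein breakdown, several ubiquitin ligase genes were past the lower cutoff. Over all genes 4.77% were past the upper cutoff and 2.71% past the lower, and 10.6% and 5.75% at a mean log2 value between 5 and 7. Of 26 ubiquitin ligase and FoxO genes, 0 were past the upper cutoff and 9 past the lower (median -0.49), and 4 had a response above 0. Fbxo32 (atrogin-1), the ligase induced in atrophy, had 7.14 after ablation and 9.49 after sham surgery in M-PDK1KO plantaris, against 7.72 and 9.62 in control plantaris. Trim63 (MuRF1) had 7.57 after ablation and 8.91 after sham surgery, and Klf15, a glucocorticoid-induced factor, had 4.28 and 6.20. All 3 genes were at or below 0.4-fold. Among 24 autophagy genes, 2 were at most 0.5-fold, Pink1 at -1.21 and Ulk1 at -1.05, and Map1lc3b lay just short of the cutoff at -1.0. All 37 proteasome genes lay between -0.93 (Psme4) and 0.86 (Psmb8). Of 18 targets of the glucocorticoid receptor, 6 were at most 0.5-fold, among them Lpin1 and Zbtb16 at -1.83 and -1.5, and 2 were at least 2-fold higher, led by Angptl4, a lipase inhibitor, at 2.14. Of 16 clock genes, Tef and Nr1d1 were at most 0.5-fold, at -1.04 and -1.03; clock transcripts vary with the hour, and sampling hours are not given in the sources used here.

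Most genes of oxidative metabolism had a response below 0, and the share past the lower cutoff differed between the lists. That share was 2.71% over all genes and 5.75% at a mean log2 value between 5 and 7. It was 11.2% between 7 and 9, where the means of the oxidative phosphorylation and citric acid cycle lists lay. The medians of the oxidative phosphorylation and mitochondrial ribosome lists were smaller in size than the probe set spread of 0.63. That spread is one of single genes, and 1 array a side does not give the error of a list median. Of 53 oxidative phosphorylation genes, 51 had a response below 0, with a median of -0.53 and 1 at most 0.5-fold, Cox8b, a muscle isoform, at 9.64 after ablation and 10.79 after sham surgery. Cox6a1, the non-muscle isoform of another subunit of cytochrome c oxidase, had 9.72 and 8.76, a response of 0.96, and Cox7a1, a muscle isoform, had -0.97. These muscle isoforms were thus lower and this general isoform higher. Of 30 mitochondrial ribosome genes, 28 were below 0 (median -0.48), and of 32 citric acid cycle and pyruvate dehydrogenase genes 30 were below 0 (median -0.74), with 5 at most 0.5-fold. Pcx, the pyruvate carboxylase, had 4.62 after ablation and 6.58 after sham surgery, and the kinase gene Pdk3 was the exception at 1.48. Of 28 mitochondrial regulators, 8 were at most 0.5-fold, led by the AMPK subunit gene Prkab2 at -2.18, the receptor genes Rxrg at -1.79 and Ppara at -1.65, and Perm1 at -1.72.

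Most genes of fuel use had a response below 0 as well. The share at most 0.5-fold was 2.71% over all genes, 5.75% at a mean log2 value between 5 and 7 and 11.2% between 7 and 9. Of 30 genes of fatty acid uptake and oxidation, 9 were at most 0.5-fold and Cpt1a, the non-muscle carnitine palmitoyltransferase, was at 1.01 (median -0.70), and Lpl, the lipoprotein lipase, had 8.65 after ablation and 10.23 after sham surgery. Acacb and Ucp3 had -1.59 and -1.55. Of 31 genes of amino acid breakdown, 13 were at most 0.5-fold and 30 had a response below 0, with a median of -0.77, the lowest of the 64 lists. Bckdhb, a subunit of the branched-chain ketoacid dehydrogenase, had 3.91 after ablation and 5.66 after sham surgery, and its phosphatase gene Ppm1k had 5.42 and 6.76. Of 33 glycolysis and glycogen genes, 8 were at most 0.5-fold and 2 at least 2-fold higher, and 27 of the 33 had a lower response than in control plantaris (medians -0.42 in M-PDK1KO and -0.37 in control). Phkb and Phka1, subunits of phosphorylase kinase, had -1.57 and -1.53, and Pgm2, a phosphoglucomutase, had 5.90 after ablation and 4.25 after sham surgery.

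**Figure D4:**
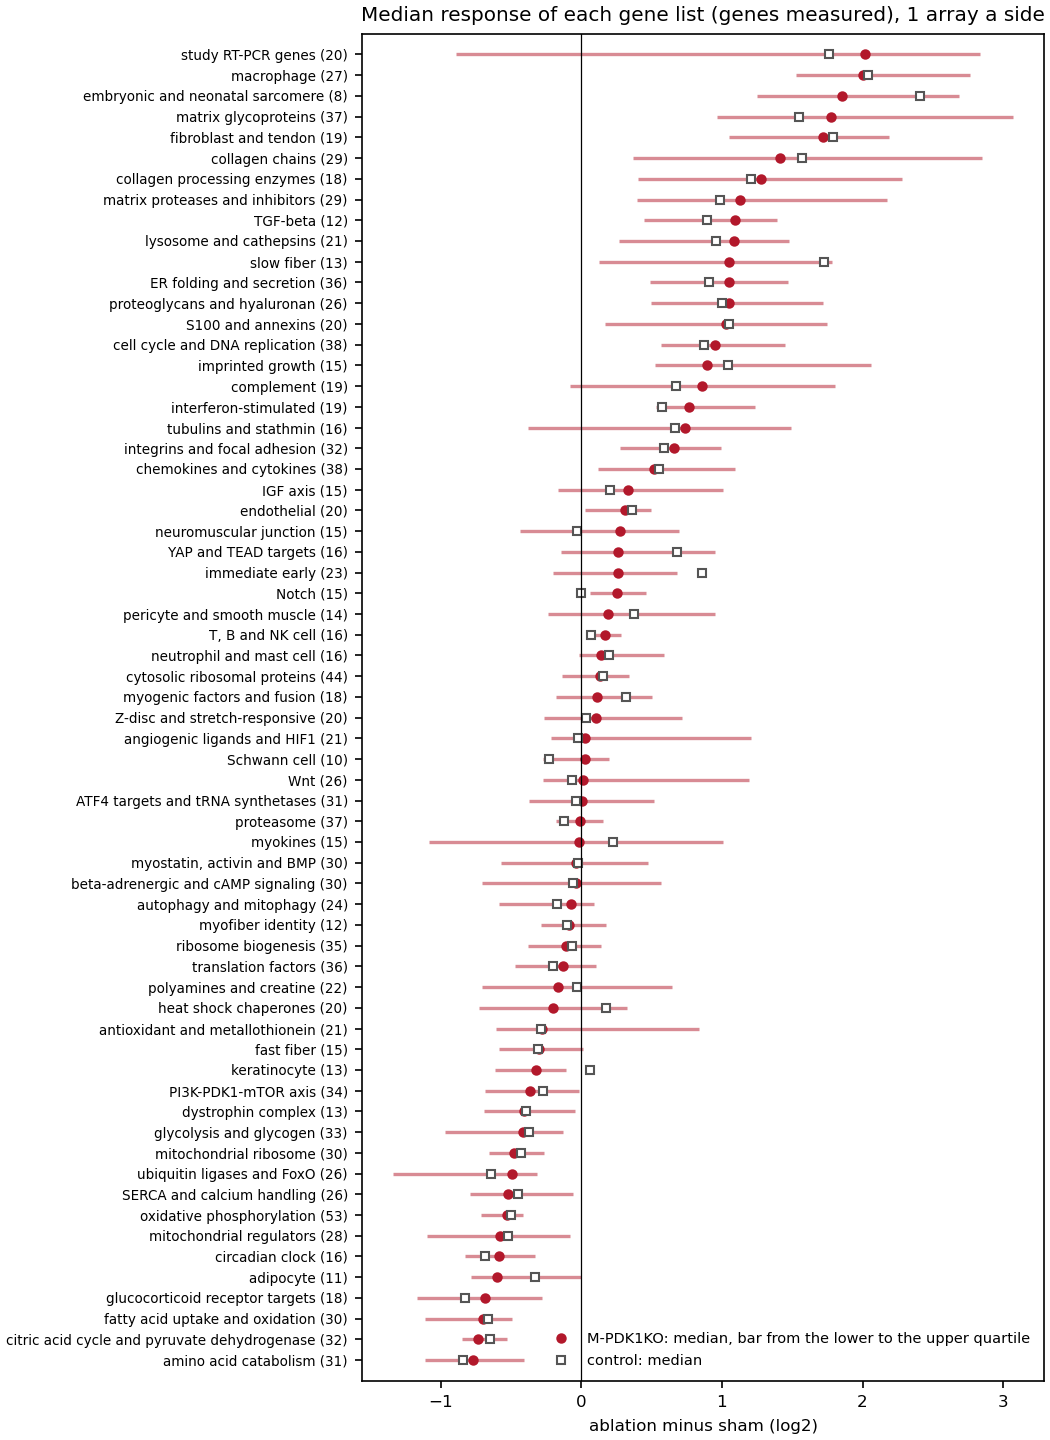
Median response (ablation minus sham, log2, horizontal) of each of the 64 gene lists, with the number of genes measured in parentheses, for M-PDK1KO as filled circles with a bar between the quartiles and for control as open squares, 1 array a side. The RT-PCR list, at 2.02, and the macrophage, embryonic sarcomere and matrix glycoprotein lists lie furthest right and amino acid breakdown, at -0.77, furthest left in M-PDK1KO plantaris; the immediate early list has 0.26 in M-PDK1KO and 0.86 in control plantaris.

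The RT-PCR list holds genes that the study assayed by RT-PCR, so it is not independent evidence of a direction. Trim63 was added to it here, and Pdgfc was entered for a symbol that the study prints differently and that may stand for another gene. Of its 20 genes, 11 were past the upper cutoff, among them Hif1a at 2.33 (1.47 by the mean of its probe sets), Mmp2 at 2.63 and Pdgfc at 2.21. The 3 past the lower cutoff were Fbxo32 at -2.35, Klf15 at -1.92 and the added Trim63 at -1.34. The other 6 lay between the cutoffs, with Trim36 at 0.19, Map1lc3a at 0.32, Prodh at -0.31 and Bnip3 at -0.86, and Bcat2 and Map1lc3b both at -1.0.

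Most genes past a cutoff in M-PDK1KO plantaris were past it in control plantaris, whose 2 arrays are separate from those above. Of the 1059 genes at least 2-fold higher, 790 were also at least 2-fold higher in control plantaris, which is 74.6% of the M-PDK1KO genes and 79.4% of the 995 control genes. Of the 602 at most 0.5-fold, 390 were so in control plantaris, or 64.8% of the M-PDK1KO genes and 69.1% of the 564 control genes. No gene was past 2-fold in opposite directions, 78 of the 1059 and 49 of the 602 were under 1.5-fold in control plantaris, and all 250 genes at least 4-fold higher were at least 1.5-fold higher there. A cutoff passed in 1 genotype and missed in the other does not show a difference between them, and with 1 array a condition that difference was not tested.

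The genes whose M-PDK1KO response lay furthest below the control response included heat shock and immediate early genes. Hspa1b, an inducible HSP70 chaperone, had 6.34 after ablation and 8.16 after sham surgery in M-PDK1KO plantaris, against 8.47 and 7.66 in control plantaris. Its near-identical copy Hspa1a, with which probes may share signal, had 6.93 and 8.28 in M-PDK1KO plantaris, against 8.52 and 7.67 in control plantaris. Fos had 4.69 after ablation and 5.32 after sham surgery in M-PDK1KO plantaris, against 6.33 and 4.40 in control plantaris. In each of the 3 the ablated M-PDK1KO array was the lower and the sham M-PDK1KO array the higher of its genotype pair, so both arrays of the response took part. Atf3, Btg2 and Otud1 had responses of 0.89, -0.12 and 0.26 in M-PDK1KO, against 2.79, 1.42 and 2.21 in control plantaris. Over the 23 immediate early genes, 21 had a smaller response in M-PDK1KO, and 1 was at least 2-fold higher and 2 at or below 0.5-fold there, against 11 and 0 in control plantaris. The 2 lower genes were the nuclear receptors Nr4a1 and Nr4a3, at -2.04 and -1.45. The mean log2 value of the list was 6.11 after ablation and 6.0 after sham surgery in M-PDK1KO plantaris, against 6.55 and 5.64 in control plantaris. Transcripts of this kind also answer within minutes to handling and dissection, and the part of either was not tested.

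Krt10 and Dmkn, genes of the epidermis, were lower after ablation in M-PDK1KO plantaris, and the sham array of this genotype had the highest value of the 4 arrays for each. Krt10 had 3.64 after ablation and 5.75 after sham surgery in M-PDK1KO plantaris, against 3.78 and 3.99 in control plantaris, and Dmkn had 2.61 and 4.28, against 2.54 and 2.54. The mean over 13 keratinocyte genes was 2.76 after ablation and 3.24 after sham surgery in M-PDK1KO plantaris, against 2.65 and 2.57 in control plantaris, so the sham M-PDK1KO array was the highest of the 4. Of the 13 genes, 9 were at or below the median of all genes on both M-PDK1KO arrays, and the part of skin RNA in other values of that array was not tested.

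At the other end, the responses furthest above control belonged to genes of interferon, immune and other functions. Serpinb1a, an inhibitor of neutrophil proteases, had 6.01 after ablation and 2.59 after sham surgery in M-PDK1KO plantaris, against 4.69 and 3.10 in control plantaris. Cmpk2 and Epsti1, which interferon induces, had responses of 1.37 and 1.95 in M-PDK1KO, against -0.24 and 0.46 in control plantaris. Il7r, the interleukin 7 receptor chain, had 3.96 after ablation and 1.80 after sham surgery in M-PDK1KO plantaris, against 3.0 and 2.36 in control plantaris, and its response of 2.16 became 0.73 with dim values raised to the median. Over 19 interferon-stimulated genes, 8 were at least 2-fold higher in M-PDK1KO and 7 in control plantaris, with medians of 0.76 and 0.57, and 14 had a higher response in M-PDK1KO, such as Ifit1 at 1.69 against 1.06. The other 4 genes with the highest differences were Zfp566, Apol7c, Zfp931 and Ahcy, and for Zfp566, Zfp931 and Ahcy the M-PDK1KO response was between -0.24 and 0.20 while the control response was between -1.61 and -1.17. Such differences spread more at low than at high signal: the SD of the M-PDK1KO response minus the control response was 0.32 for genes with a mean under 3, 0.38 between 3 and 5 and 0.17 at 9 and above.

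**Figure D5:**
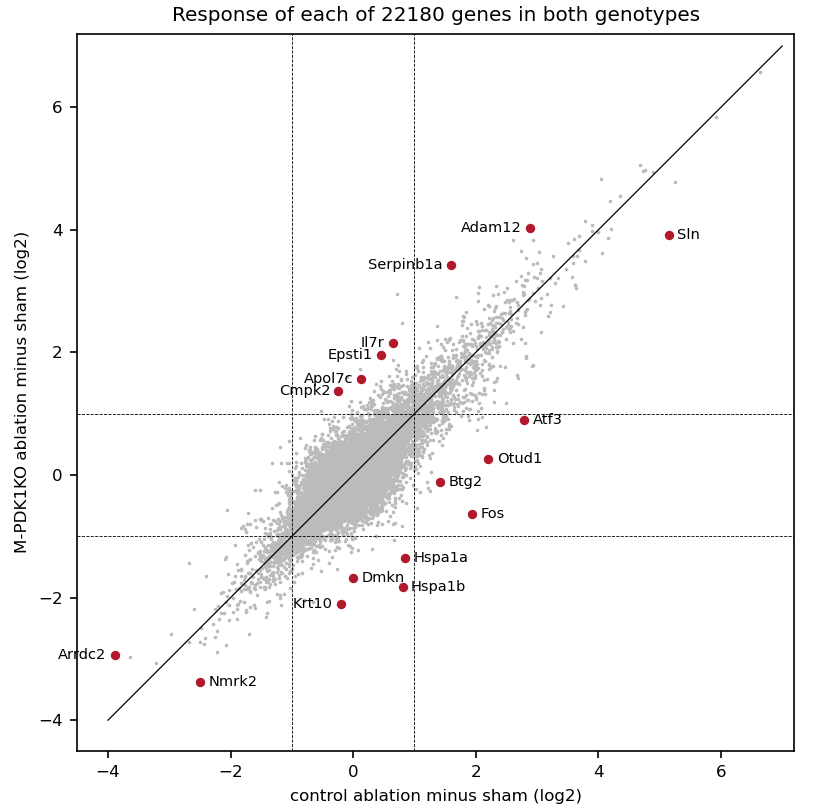
Response of each of the 22180 genes in M-PDK1KO plantaris (ablation minus sham, log2, vertical) against that in control plantaris (horizontal), 1 array a condition, with the line of equal responses and dashed lines at 2-fold and 0.5-fold. Labelled points far from the line include Serpinb1a, at 3.42 in M-PDK1KO and 1.59 in control, and Hspa1b, at -1.82 in M-PDK1KO and 0.81 in control.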

How the data were processed

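Plantaris RNA was hybridised to Affymetrix Mouse Gene 2.0 ST arrays, 1 for each of 4 conditions. The deposited values are on a log2 scale, as their range shows, and were summarised by the authors per probe set; their methods name Transcriptome Viewer, and background correction and normalization are not given in the sources used here. Of 41345 probe sets, 23521 named 1 gene in the platform's annotation; those naming several (1820) or none (16004) were left out of the gene counts. Of 1082 genes with several probe sets, the probe set of highest mean signal stood for the gene. Low values were not filtered. Responses were log2 differences, read against the fold cutoffs of 2 and 0.5, with no test. The 64 gene lists (1430 of 1555 symbols measured) and the genes of interest were chosen with earlier results of these data known. Genes named were the 15 highest and 15 lowest responses (over the median signal of all genes on an M-PDK1KO array; no unnamed models, pseudogenes, small RNAs, olfactory or pheromone receptors or immunoglobulin and T cell receptor segments), up to 4 leading genes of each list, the 8 highest and 8 lowest differences from control, Pdpk1 and the RT-PCR list (genes the study assayed, with Trim63 added and Pdgfc entered for a symbol printed differently), and members of the PI3K and beta-adrenergic lists. Genes outside this rule (Myh7, Myh7b, Myl3, Pln, Timp4, Cpt1a, Eif2ak3, Piezo1) were chosen after their values were seen. Alternatives were averaging the probe sets of a gene, every single-gene probe set, only genes above the median, a floor at the median, quantile normalization, median centring and list means. The computation was tested on simulated arrays. The software was numpy 2.4.6, pandas 2.3.3 and matplotlib 3.10.9 under Python 3.11.15.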

Additional observations from a re-analysis of the deposited data

Results flagged for a closer look

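Results are given here where the responses of the 2 genotypes had opposite signs and both were at least 0.1 in size for a list median or 0.25 for a named gene, and in each the difference between genotypes was not tested. Smaller pairs of opposite sign, such as Cmpk2 at 1.37 in M-PDK1KO and -0.24 in control plantaris, are left out. Hspa1b had a response of -1.82 in M-PDK1KO and 0.81 in control plantaris, a difference of -2.63, and Hspa1a had -1.35 and 0.85, a difference of -2.20. Fos had -0.63 in M-PDK1KO and 1.94 in control plantaris, a difference of -2.57. The 20 heat shock chaperones had a median of -0.20 in M-PDK1KO and 0.18 in control plantaris, with a median difference of -0.22 per gene. Gldn, which encodes gliomedin of the nodes of Ranvier, had 0.57 in M-PDK1KO and -0.49 in control plantaris, a difference of 1.06, at log2 values of 3.64 after ablation and 3.06 after sham surgery in M-PDK1KO plantaris, which lie around the median of all genes.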

How the results depend on the processing

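No paired analysis was possible because each condition has 1 array. Genes at least 2-fold higher numbered between 921 (median centring) and 1123 (every single-gene probe set), and genes at most 0.5-fold between 573 (floor at the median) and 771 (median centring), against 1059 and 602. Median centring moved a response by up to 0.09 and quantile normalization moved one of the named genes by up to 0.13; no named gene changed by more than the probe set spread of 0.63 under either. With a floor at the median, 77.5% of the genes at least 2-fold higher in M-PDK1KO were so in control plantaris, the tubulin list had a median of 0.10, and 14 of 324 named genes had responses smaller by over that spread, by up to 1.61 (Atp6v0d2, at 0.97). Over genes above the median only, the T, B and NK cell list, reduced to 1 gene, was at 0.82. The RT-PCR list had a mean response of 1.27, against a median of 2.02. By the mean of probe sets, 7 named genes moved, among them Sfrp2 (1.35), Plagl1 (1.51), Hif1a (1.47) and Ccn2 (1.12). No response past a cutoff changed sign; list medians near 0 did so under list means (3 lists), genes above the median only (1), median centring (4) and quantile normalization (5).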

Other observations

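Values of gene groups outside those above follow for M-PDK1KO plantaris, where 4.77% of all genes were at least 2-fold higher and 10.6% of those with a mean log2 value between 5 and 7. Among 32 integrin and focal adhesion genes, 8 were at least 2-fold higher, led by Actn1, the non-muscle actinin, at 7.80 after ablation and 5.33 after sham surgery, and by the collagen receptor gene Itga11 at 7.16 and 5.24. Of 16 tubulin genes, 7 were at least 2-fold higher, with Tubb6 at 2.49. Wnt pathway genes split 9 to 3, with the secreted modulators Ccn4, Sfrp1 and Sfrp4 at 2.59, 2.48 and 2.45. Of 20 S100 and annexin genes, 10 were at least 2-fold higher, among them the membrane repair genes Anxa2, Anxa5 and Anxa1 at 2.30, 2.15 and 2.11. Of 20 endothelial genes, 2 were at least 2-fold higher, a share near that background, Apln (apelin) at 5.48 after ablation and 2.91 after sham surgery and its receptor gene Aplnr at 6.99 and 4.66, whereas the VEGF receptor gene Flt1 had a response of -1.14. Among 21 angiogenic and HIF1 genes, Angptl1 and Pdgfc were at 2.33 and 2.21. In the antioxidant list, Mt2 (metallothionein 2) was at 1.40 and Nqo1 at -1.60, and among ATF4 targets Aldh18a1, of proline synthesis, was at 1.63 and Chac1, of glutathione breakdown, at -2.08. Of 11 adipocyte genes, Retn (resistin) and Lpl were at most 0.5-fold, and 8 had a response below 0.

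Of the 17824 probe sets without a single gene name, 455 were at least 2-fold higher (2.55%) and 490 were past the lower cutoff (2.75%) in M-PDK1KO plantaris, with responses between -3.89 and 3.96. Of these, 204 and 171 were past the same cutoff in control plantaris.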
